A study of Mus musculus with 2 samples.

Results

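Cells limit protein synthesis when amino acids run short or when unfolded proteins accumulate in the endoplasmic reticulum (ER). In the integrated stress response, kinases phosphorylate the initiation factor eIF2, general translation falls, and the mRNA of the transcription factor Atf4 is translated more efficiently. Atf4 then activates genes of amino acid synthesis together with genes that restrain growth or favour cell death. The unfolded protein response shares the kinase Eif2ak3 (PERK) with it and adds the sensors Ern1 (IRE1) and Atf6. Ern1 activates the transcription factor Xbp1 by an unconventional splicing of its mRNA, and Xbp1 and Atf6 raise the level of ER chaperones.

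The 10 genes described here were chosen by name: the transcription factors Atf4, Ddit3 and Xbp1, the kinase Eif2ak3, the amino acid enzymes Asns, Psat1 and Phgdh, and the stress outputs Trib3, Chac1 and Sesn2. They have 12 RefSeq entries of the 24165 in the table of gene activity, and 10 of its 20128 gene symbols. Activity was measured by global run-on sequencing (GRO-seq), in which engaged RNA polymerases are allowed to run on in isolated nuclei with a labelled nucleotide, so that reads mark transcription in progress and not the amount of mRNA. The 2 replicate libraries came from C2C12, an established mouse myoblast line, grown in high-glucose medium with fetal bovine serum and given no treatment, and the authors pooled them into a single value per entry. There is thus 1 condition, with no stress treatment, no mutant cells, no value per library and no standard deviation or test. All comparisons below are between genes within the pooled data. Nor can the table show eIF2 phosphorylation, translation of Atf4 or splicing of Xbp1, which act on protein or mRNA. Activity is given in RPKmM, the reads on the sense strand of the gene body (from 1 kb after the transcription start site to the transcript end) divided by its mappable length in kilobases and by the depth of the pooled libraries, and it is therefore a level per length. The depth is not in the table, so no counting interval is given.

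The label of the cells was checked first. All 6 muscle lineage markers examined were active, from 2.39 RPKmM for both Myod1 and Myog to 72.45 for Des. They do not separate myoblasts from later muscle cells. Ptprc, Epcam, Rbfox3 and Alb, which mark blood, epithelium, neurons and liver, were listed as inactive. The endothelial marker Pecam1 and the more active entry of the astrocyte marker Gfap were at 0.01.

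The genome sequence near the starts of these genes was searched for the binding sites through which the response is known to act. Atf4, with a C/EBP partner, binds the C/EBP-ATF response element, searched here as TGATGNAA on both strands. Xbp1 and Atf6 act through the ER stress response element, searched as CCAAT and CCACG with 9 bases between them. The stretches below are those in which an exact match was found in a member, with that of the ER chaperone Hspa5 (BiP) for contrast, and capitals mark the matched letters. They are written 5′ to 3′ in the direction of transcription, and an element on the opposite strand therefore appears as its reverse complement. Asns, Chac1, Trib3 and Hspa5 come from the RefSeq promoter windows of build GRCm38.p6 and each matched the mm9 genome at a single place. The stretches of Asns, Trib3 and Hspa5 hold at most 30 bases past an annotated start. Ddit3 and Sesn2 were read from mm9, at the GENCODE vM1 start.
Asns, chr6:7643225-7643309, minus strand: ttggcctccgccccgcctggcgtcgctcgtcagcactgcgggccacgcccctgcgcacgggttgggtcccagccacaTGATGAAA
Chac1, chr2:119176728-119176827, plus strand: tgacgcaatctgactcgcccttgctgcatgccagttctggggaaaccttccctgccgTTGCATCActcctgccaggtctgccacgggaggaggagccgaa
Trib3, chr2:152169765-152169794, minus strand: attagctcaggtTTACATCAgccgggcggg
Hspa5, chr2:34627540-34627569, plus strand: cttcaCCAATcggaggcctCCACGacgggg
Ddit3, chr10:126727500-126727599, plus strand: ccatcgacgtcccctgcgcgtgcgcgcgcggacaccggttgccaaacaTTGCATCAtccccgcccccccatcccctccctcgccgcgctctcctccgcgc
Sesn2, chr4:132066617-132066716, minus strand: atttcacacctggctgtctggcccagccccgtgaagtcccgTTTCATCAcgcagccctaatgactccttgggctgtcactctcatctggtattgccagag

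All 12 entries were active in untreated myoblasts, against 70.2% of all entries in the table. Their activities had a median of 1.855 RPKmM with quartiles of 0.9 and 2.407, and the median of all active entries was 0.87 with quartiles of 0.22 and 1.99. The ratio of both medians was 2.13. Of the 12 entries, 9 lay above the median of all active entries and 6 above their upper quartile. A level of 1 or more was reached by 8 entries, against 46.0% of all active entries, and a level of 10 or more by 1 entry, against 2.89%. The members themselves were far apart, as the highest was 90.3-fold above the lowest.

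**Figure D1:**
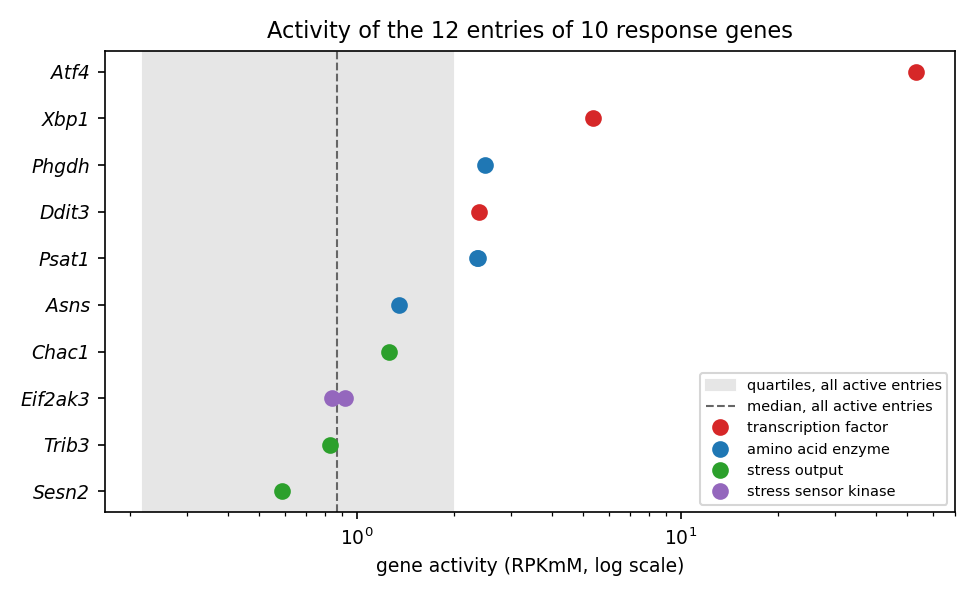
Gene activity in RPKmM (log scale) of each of the 12 entries, coloured by role, with the quartiles (grey band) and the median (dashed line) of all active entries. Atf4 stands at 53.28 and the others lie between 0.59 and 5.37, and the points of the 2 Psat1 entries coincide.

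The most active member was Atf4, the transcription factor through which the integrated stress response acts. Its single entry (NM_001287180) had an activity of 53.28 RPKmM. This placed it 58th among the 16957 active entries, between Actb at 53.94 and Pabpc1 at 53.18, which encode cytoplasmic actin and a poly(A)-binding protein. It was 61.2-fold above the median of all active entries. Of the summed activity of the 10 genes, with the higher entry for each, Atf4 took 75.2%, and without it the median of the other 11 entries was 1.35. Atf4 lies on the plus strand of chromosome 15 of mm9 from 80085614 to 80087970, a span of 2.36 kb, so that its value rests on 1.36 kb of gene body. Short genes can reach high values, and 34 of 405 active entries with spans of 2 to 3 kb had an activity of at least 10. Only 7 of these 405, Atf4 included, reached 53.28, and their median was 0.75. The nearest gene upstream on the same strand is Mief1 (Smcr7l in the annotation), which ends 1.82 kb before Atf4 and had an activity of 2.97, 17.9-fold below it.

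Xbp1, the bZIP factor downstream of Ern1, was the next member at 5.37 RPKmM (NM_001271730), above 93.1% of active entries but 9.92-fold below Atf4. It spans 5.24 kb on the plus strand of chromosome 11, from 5420662 to 5425896. Ddit3 (CHOP), a C/EBP-related factor known for its part in cell death during prolonged ER stress, had an activity of 2.38 (NM_001290183), above 79.7% of active entries. Atf4 was thus 22.4-fold above Ddit3, which is among its known targets. Ddit3 lies on the plus strand of chromosome 10 from 126727830 to 126733344, and the gene Mars, on the opposite strand, overlaps its end. A transcript annotated as RP24-341K21.6 also overlaps Ddit3 on the opposite strand. As reads were counted on the sense strand, those of Mars and RP24-341K21.6 are not part of the value. The nearest annotated gene upstream on the same strand, RP24-341K21.5, ends 1.09 kb before Ddit3. Among the other bZIP factors of the response, both entries of Atf5, a relative of Atf4, were higher than Xbp1, at 8.32 and 6.89, and Atf3 was the lowest at 0.58, 4.10-fold below Ddit3. Of the 7 genes in that list, Cebpb has no row in the table.

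The kinase Eif2ak3, which senses unfolded proteins in the ER, was close to the median of all active entries. Its entries were at 0.92 RPKmM (NM_001313918) and 0.84 (NM_010121), which lie on either side of that median and differ by 1.10-fold. Eif2ak3 is the longest member, with a span of 60.7 kb on the plus strand of chromosome 6 from 70794509 to 70855239, and a small nucleolar RNA (SNORA5) is annotated within it on the same strand. Atf4 was 57.9-fold above the higher of both entries. Of the other kinases that phosphorylate eIF2, Eif2ak1, which responds to heme deficiency, had 0.85, and Eif2ak4 (GCN2), which senses amino acid shortage, had 1 in each of its entries. Eif2ak2 (PKR), which binds double-stranded RNA, was 2.68-fold above Eif2ak3 at 2.47. The ER sensors of the other branches were also higher than Eif2ak3, with 1.59 for Ern1, 1.28 for Atf6 and 2.37 for Atf6b, whereas Ern2, a form of IRE1 known from epithelia, was inactive. Xbp1 was 3.38-fold above Ern1, whose product splices its mRNA.

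Among the amino acid enzymes, Phgdh and Psat1 were nearly equal. They catalyse the first steps of serine synthesis. Phgdh had 2.49 RPKmM (NM_016966) and Psat1 had 2.37 (NM_001205339) and 2.36 (NM_177420), so that Phgdh was 1.05-fold above the higher Psat1 entry. Psph, which completes the pathway, had only 0.47, and Phgdh was 5.30-fold above it. Phgdh (chromosome 3, minus strand, 98117093 to 98143913) spans 26.8 kb and Psat1 (chromosome 19, minus strand, 15979617 to 15999112) 19.5 kb. Asns, which makes asparagine, was lower at 1.35 (NM_012055), above 62.8% of active entries. It spans 18.1 kb (chromosome 6, minus strand, 7625169 to 7643254). Nars, which charges tRNA with asparagine, had 10.43, 7.73-fold more than Asns. The table gives no error for these values, so the order of Phgdh, Ddit3 and Psat1, which lie from 2.36 to 2.49, cannot be taken as settled.

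The stress outputs included the least active members, Sesn2 and Trib3. Chac1, which degrades glutathione, had 1.26 RPKmM (NM_026929), above 60.8% of active entries. Trib3, a pseudokinase that restrains Akt and Atf4, had 0.83 (NM_175093), just below the median of all active entries. Sesn2, a sestrin that takes part in leucine sensing upstream of mTORC1, had 0.59 (NM_144907), the lowest activity of a member, and 39.9% of active entries lay below it. They lie on chromosome 2 from 119176965 to 119180117 (Chac1, plus strand), on chromosome 2 from 152163158 to 152169768 (Trib3, minus strand) and on chromosome 4 from 132047947 to 132066416 (Sesn2, minus strand). A transcript annotated as Gm12981 lies within Sesn2 on the same strand, and its reads cannot be told apart from those of Sesn2.

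Each output gene has close relatives, and the member was not always the most active of its family. Chac1 was 7.0-fold above Chac2, which was at 0.18. Trib3 lay between Trib1 at 2.46 and Trib2 at 0.19. Sesn2 lay between Sesn1, at 1.37 and 1.36, and Sesn3 at 0.34. The most active relative was therefore the member itself for Chac and a different gene for the Tribbles and sestrin families.

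**Figure D2:**
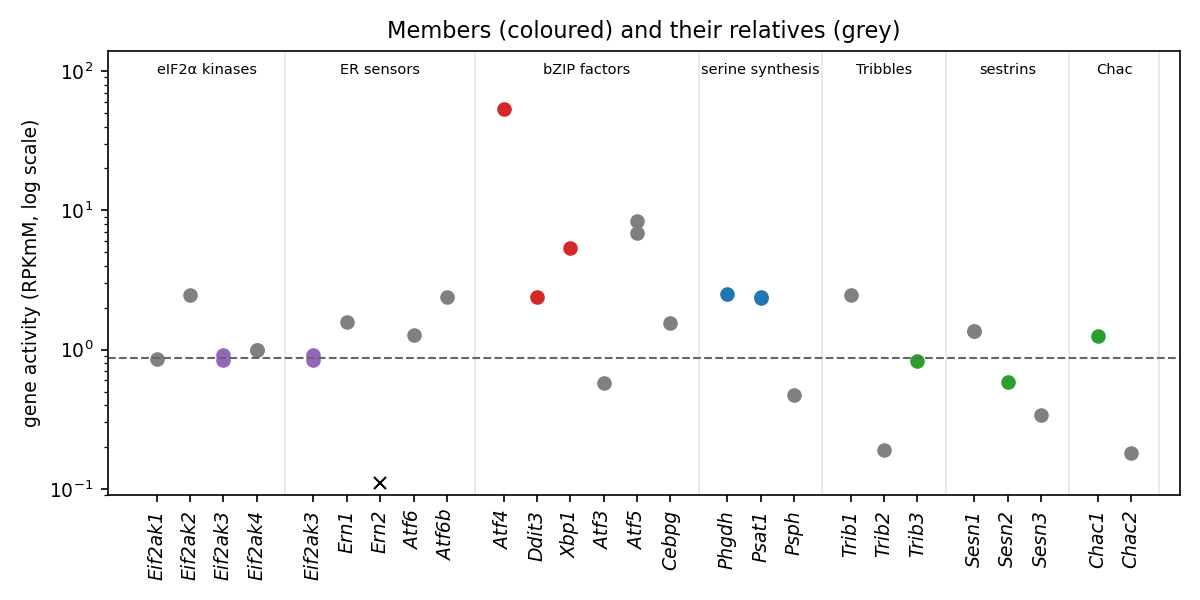
Gene activity in RPKmM (log scale) of members (coloured by role) and of related genes (grey), grouped by family, with 1 point per active entry, a cross for the inactive Ern2 and a dashed line at the median of all active entries. Eif2ak3 is drawn with both the eIF2α kinases and the ER sensors, Phgdh and Psat1 stand together above Psph, and Trib3 and Sesn2 each lie below a more active relative.

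The reads behind a value depend on the length of the gene body, which ran from 1.36 kb for Atf4 to 59.7 kb for Eif2ak3. If every base is mappable, activity times gene body length gives the reads in the gene body, scaled to depth in the same way. This product was 72.3 for Atf4, 64.3 for Phgdh and 50.2 to 55.0 for Eif2ak3, 43.6 to 43.8 for Psat1, 23.1 for Asns and 22.7 for Xbp1. It was 10.8 for Ddit3, 10.3 for Sesn2, 4.66 for Trib3 and 2.71 for Chac1. For Eif2ak3 and Psat1 a single gene body length served both entries, so their ranges reflect activity alone. The values of Chac1 and Trib3 thus rest on the fewest reads, and Atf4, despite its short gene body, on the most.

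Activity was also compared with that of entries of like span, since short genes and long genes can differ. These are entries whose whole gene span was within 1.5-fold of the span of the member's transcript, so the measures are not quite alike. Atf4 was above 98.6% of 657 such entries and Xbp1 above 89.2% of 1865. Phgdh, Psat1 and Ddit3 were above 76.7% to 79.2% of entries of like span, Asns above 60.6% and Chac1 above 60.2%. Trib3 (50.4%), Eif2ak3 (45.3% and 42.8%) and Sesn2 (37.8%) were near or below the middle. Eif2ak3 moved the most, as its higher entry was above 51.5% of all active entries.

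**Figure D3:**
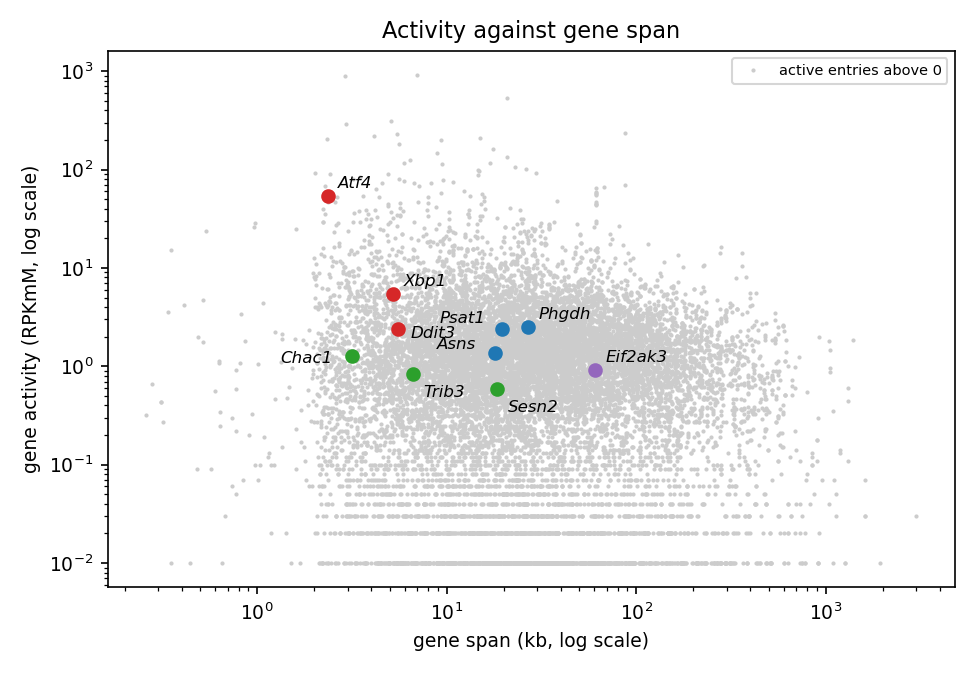
Gene activity in RPKmM (log scale) against gene span in kb (log scale) for active entries above 0 with a span in the annotation (grey) and for the members, with 1 entry each, coloured by role. Spans are of the whole gene for the grey points and of a single transcript for the members. Atf4 combines the shortest span of the members, 2.36 kb, with the highest activity, and Eif2ak3 the longest, 60.7 kb, with an activity near the median.

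The elements in the sequences printed above were set against those of all promoters. RefSeq windows of 300 bases, from 250 before to 50 after the start, were held for all 10 members. The C/EBP-ATF response element was found in 3 of them, Asns, Chac1 and Trib3, against 4.51% of the 27025 genes with a window (3.97% of 32851 windows). In Asns it begins 23 bases before the RefSeq start, in Chac1 193 bases before it and in Trib3 at base 15 after it. The annotated starts differ between sources, and relative to the GENCODE start the element of Asns lies 23 bases after the start and that of Trib3 14 before it. In a wider window of mm9, from 1000 bases before to 50 after the GENCODE start, Ddit3 and Sesn2 held it too. It lay 282 and 259 bases before their starts, so that 5 of 10 members had a match against 13.7% of 22238 protein-coding genes. The start was that of a single transcript for each member and the 5′ end of the annotated gene for the others. These shares thus rest on unlike starts and are not a strict comparison. Read on the strand of the element, the matches of Chac1 and Ddit3 share the letters TGATGCAA, those of Asns and Sesn2 share TGATGAAA, and that of Trib3 is TGATGTAA. Atf4, Xbp1, Eif2ak3, Psat1 and Phgdh had none in either window. No member had the ER stress response element in either window, where 0.137% and 0.135% of genes have it. The second form of that element (ATTGGNCCACG; 0.0444% of genes with a RefSeq window), the unfolded protein response element (TGACGTGG; 0.714%) and the cAMP response element (TGACGTCA; 2.03%) were absent from the 300-base windows of the members as well. In the wider window Chac1 had the unfolded protein response element 952 bases before its start, and 1.41% of genes had it. An exact match is a description of these letters and does not show binding.

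The activities of members with and without the C/EBP-ATF response element overlapped. In the 300-base window Asns, Chac1 and Trib3, which hold it, had activities of 0.83 to 1.35 RPKmM with a median of 1.26, and the other 7, by their higher entry, had 0.59 to 53.28 with a median of 2.38. In the wider window the 5 with a match, Ddit3 and Sesn2 included, ran from 0.59 to 2.38 with a median of 1.26, and the 5 without ran from 0.92 for Eif2ak3 to 53.28 for Atf4 with a median of 2.49. Psat1 and Eif2ak3, which have no match, lay within the range of those that do, and the difference was not tested.

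**Figure D4:**
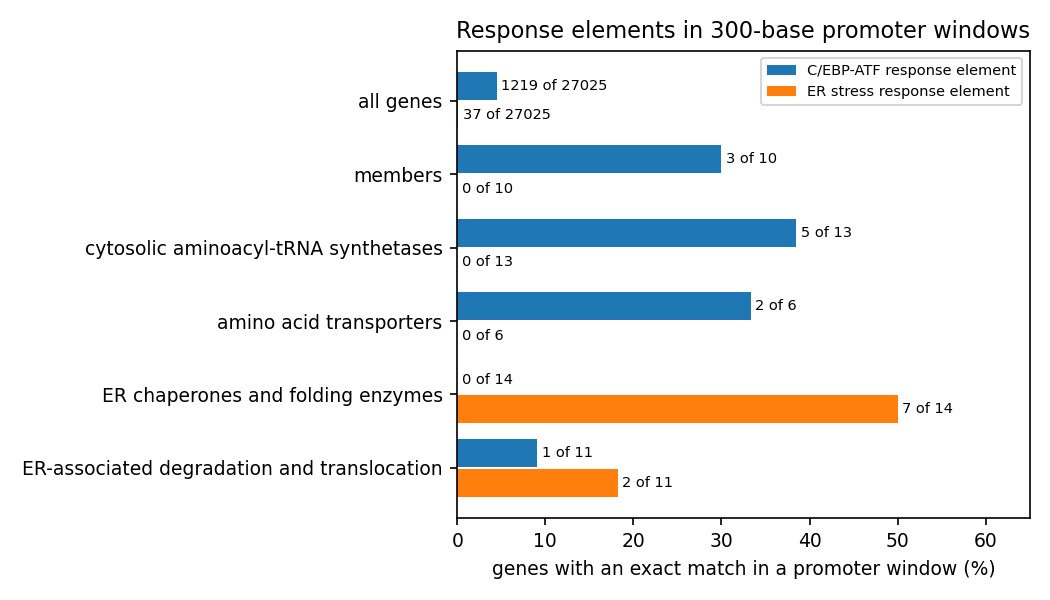
Share of genes (%, bars) with an exact match to the C/EBP-ATF response element or to the ER stress response element in a RefSeq promoter window of 300 bases, for all genes, the members and 4 lists, with the number of genes beside each bar. The C/EBP-ATF response element was found in 3 of 10 members, while the ER stress response element was found in 7 of 14 ER chaperones and in no member.

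The members belong to a larger response, and 107 other genes in 10 lists by role were examined beside them. Of these, 105 were in the table, with 119 entries, of which 117 were active, against 70.2% of all entries. Their median activity was 1.89 RPKmM, near the 1.855 of the members. At least 1 was reached by 94 of these active entries and at least 10 by 11, against 46.0% and 2.89% of all active entries, and 4 were above Atf4. The lists of sensors and proteases (median 1.59), of eIF2, eIF2B and phosphatase subunits (1.29) and of other bZIP factors (1.56) all lay between the medians of all active entries and of the members. In the second list Eif2s2, the β subunit of eIF2, was highest at 5.42 and Eif2b1 lowest at 0.9, and the phosphatase subunit Ppp1r15b, which is present in unstressed cells, was at 3.08 against 1.01 for its stress-induced relative Ppp1r15a (GADD34).

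The lists of amino acid metabolism and stress output, which hold known targets of Atf4 beside other genes of these roles, were spread widely. The enzymes of serine, one-carbon, proline and other amino acid metabolism had a median of 1.205, from 0.14 for Cth, which makes cysteine, to 4.06 for Shmt2, which makes glycine in mitochondria. The amino acid transporters ranged from 0.05 for Slc7a11, the cystine transporter, to 61.14 for Slc38a2 (SNAT2), a carrier of neutral amino acids and the only gene of these lists outside the ER chaperones above Atf4, by 1.15-fold. The 8 stress output genes in the table had a median of 1.275, with Vldlr lowest at 0.05 and the secreted factor Gdf15 highest at 5.06, while Fgf21 has no row. The cytosolic aminoacyl-tRNA synthetases, which charge tRNAs with amino acids, were all active and had a median of 2.81 over 24 entries, from 0.62 for Wars to 10.43 for Nars.

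The list that stood highest was that of the ER chaperones and folding enzymes, with a median of 7.23 RPKmM over 17 entries and 8 entries of at least 10, a level that 2.89% of all active entries reach. Calr (calreticulin) had 311.5 and Hspa5 72.99, which is 13.6-fold above Xbp1, a factor known to raise its transcription under ER stress. The lowest was Creld2 at 0.57. Among the genes of ER-associated degradation and translocation the median was 2.08, from 0.87 for Edem2 to 14.7 for the translocon subunit Sec61a1, and Derl3 was inactive. None of these differences between lists was tested, since genes are not replicates.

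**Figure D5:**
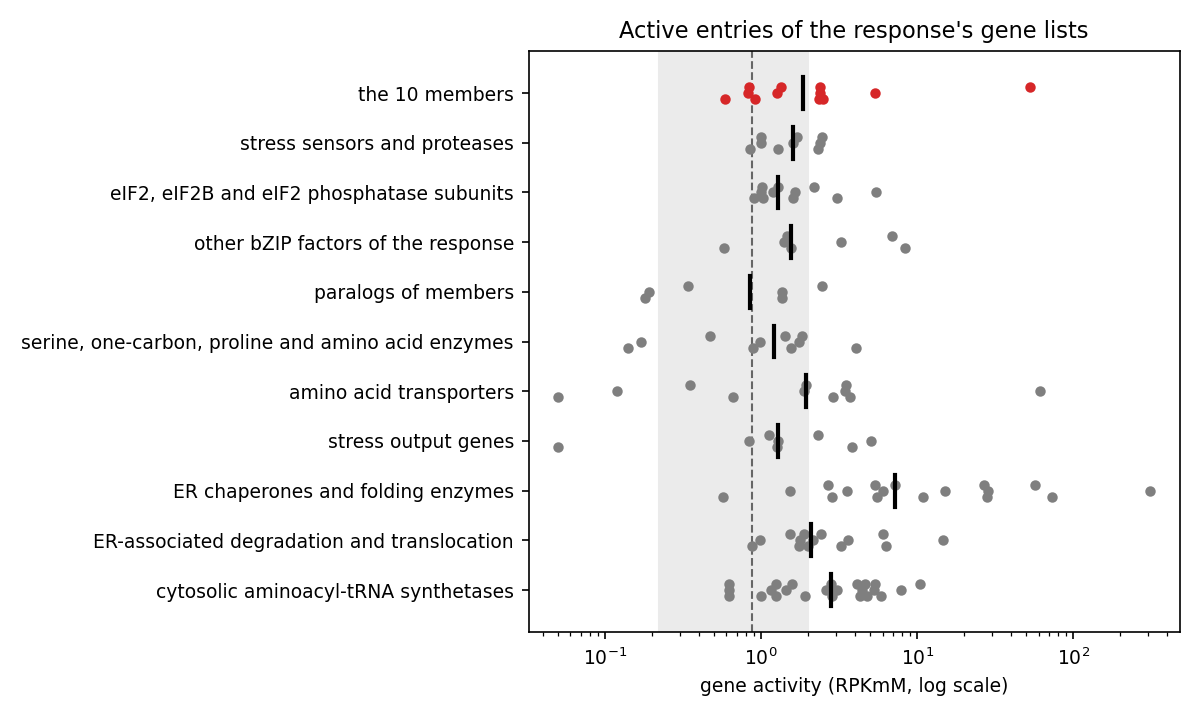
Gene activity in RPKmM (log scale) of the active entries of the members (red) and of 10 lists of other genes of the response (grey), with a black bar at each median, and the quartiles (band) and median (dashed line) of all active entries. The ER chaperones have the highest median at 7.23, the members stand at 1.855, and Atf4 and Slc38a2 lie apart from the rest of their lists.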

How the data were processed

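The authors sequenced 2 GRO-seq libraries of C2C12 myoblasts, mapped the reads to mm9 with Bowtie2 (the submitters' processing notes also name CASAVA 1.8), kept unique reads, discarded those at rRNA and tRNA repeats and pooled the libraries. They deposited gene activity as RPKmM, an RPKM over mappable bases of the gene body, rounded to 2 decimals, or the word Inactive for entries that did not pass their test against the background of gene-free regions. Pooling hides the variation between libraries.

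Here, entries were matched by gene symbol, and medians, ratios, ranks and counts over entries were computed with Python 3.11.15, numpy 2.4.6 and pandas 2.3.3, with figures from matplotlib 3.10.9. No test was made. Members and lists were chosen with earlier results of these data known. Genes named are the members and, from each list, the most and least active gene and those inactive. All other genes (further sensors and kinases, Psph, Ppp1r15a and Ppp1r15b, Hspa5, Pdia3, relatives of members, neighbours and genes with a motif match) were named after their values were seen.

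Spans of members are of the GENCODE vM1 transcript (mm9) nearest in length to the RefSeq gene. The entries they were compared with have the span of the whole GENCODE gene, matched by symbol for 90.0% of active entries. All entries of a gene share that span. Motifs were searched exactly in RefSeq windows (GRCm38.p6), matched by accession or symbol, and the search was tested on simulated data. A value was taken as moved where an alternative changed it by more than 1.5 times.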

Additional observations from a re-analysis of the deposited data

How the results depend on the processing

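Of 66 alternative values, 59 stayed within 1.5 times of the reported value and 7 did not. Part of the 59 could not have moved. All 12 member entries are active and lie above 0.01, so settings that touch low or inactive entries leave their count and median unchanged. The tally is therefore no measure of how firm the results are. The ratio of the members to all active entries rose from 2.13 to 5.98 with inactive entries kept at 0, to 3.41 where geometric means with a pseudocount of 0.01 were used, and to 3.69 where the pseudocount was 0.001. All of these remained above 1, but with inactive entries at 0 the ratio could not fall, since all 12 member entries are active. The median of the paralogs of members fell from 0.85 to 0.34 with a single entry per gene symbol, whether the highest or the lowest, as Sesn1 then counted 1 time and not 2 times. The wider promoter window, chosen after seeing the data, gave 5 members with the C/EBP-ATF response element and 1 with the unfolded protein response element. No paired analysis was possible because the replicates were pooled in the table. The table gives neither reads per entry nor a value per library, so small differences between members have no measure of error.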

Other observations

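The C/EBP-ATF response element, which 4.51% of all genes with a RefSeq promoter window hold, was also found in other genes of the response. Of 13 cytosolic aminoacyl-tRNA synthetases with such a window, 5 held it: Aars, Gars, Iars, Tars and Yars. Their activities ran from 1.15 RPKmM for Yars to 7.88 for Tars with a median of 2.79, and the 8 without a match had 1.25 to 5.4 with a median of 3.59. The order of these medians depends on the window. In the wider mm9 window 6 of 20 synthetases matched (Cars, Gars, Iars, Lars, Nars and Tars), and their median of 4.515 was above the 2.825 of the other 14, while Aars and Yars had no match there. Of the amino acid transporters 2 of 6 held the element in the RefSeq window, Slc1a4 (3.45) and Slc7a11 (0.05), and of the stress output genes 3 of 8, Nupr1 (2.33), Vldlr (0.05) and Fgf21, which has no row in the table. Single carriers were Atf3 (0.58) of 6 bZIP factors, Pycr1 (0.17) of 7 amino acid enzymes, Eif2s3x (1.6) of 8 subunits of eIF2 and its partners, Herpud1 (0.99) of 11 degradation genes and Chrna1 (15.62) of 5 muscle lineage markers. In the RefSeq window it was found in 0 of 14 ER chaperones, 0 of 7 sensors and proteases and 0 of 4 relatives of members. These counts depend on the window. In the wider window, where 13.7% of all genes hold the element, it was found in 3 of 9 transporters (Slc1a5 added), 4 of 9 stress output genes (Stc2 added), 1 of 7 bZIP factors (Atf3), 2 of 9 amino acid enzymes (Gpt2 and Pycr1) and 2 of 13 degradation genes (Edem1 and Herpud1). It was found in 2 of 10 eIF2 subunits and partners, Eif2b4 and Ppp1r15b but not Eif2s3x, in 1 of 6 muscle lineage markers (Chrna1), 2 of 16 chaperones (Dnajc10 and Hyou1), 1 of 5 relatives (Sesn3) and 0 of 9 sensors and proteases.

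The ER stress response element, which 0.137% of all genes hold in the RefSeq window, was found in 7 of 14 chaperones: Calr, Hspa5, Hsp90b1, Canx, Pdia6, Dnajc3 and Creld2. Their median activity was 26.65 RPKmM against 6.04 for the 7 without a match, but the groups overlap, as Creld2 holds the element at 0.57 and Pdia3 lacks it at 28.56. In the wider mm9 window 6 of 16 matched, with a median of 16.07 against 8.46 for the other 10. Hspa5 was then among those without a match, as its element begins at base 56 after the GENCODE start used and the window ends at base 50. With Hspa5 counted as a carrier, a choice made after seeing the data, the medians in that window were 26.65 for 7 genes and 6.04 for the other 9. Of 11 degradation genes, Syvn1, at 1.87 and 1.76, and Derl3, which was inactive, held it in the RefSeq window. Some chaperones counted above as without a match hold the second form of the element. These were Dnajb11 in the RefSeq window, against 0.0444% of genes, and Dnajb11, Hyou1 and Manf in the wider window, against 0.108%. Herpud1, a degradation gene, held the second form in both windows. The differences in activity were not tested.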
